A study of Mus musculus with 12 samples.

Results

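Transcripts of the cholesterol synthesis pathway and of the regulators around SREBP-2 were followed in the livers of insulin-deficient mice given either leptin or phosphate-buffered saline (PBS) by the intracerebroventricular route (icv), into the brain. The set was a fixed list of 28 genes, chosen by name, from the enzymes of mevalonate and sterol synthesis to the proteins that sense sterols and move cholesterol inside the cell. Of the 28 genes, 25 had at least 1 probe that the array annotation names, with 51 probes in all, of which 40 were kept, and 24 genes were detected well enough to be tested among 8819 genes. Hmgcs1, Fdft1 and Acat2 were not analysed here, and both Ggps1 probes were not detected on any array. Of the 24 tested genes 10 had more than 1 usable probe, and each gene is described by its brightest one unless another is named.

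All mice were insulin-deficient and of mixed background, so no mouse with normal insulin is part of the comparison, and the labels do not say how insulin was removed. The leptin group of 6 arrays came from mice infused icv with 25 ng in 0.11 µL per hour and killed on day 10. The control group of 6 arrays came from mice given PBS icv, called placebo in the sample titles, for whom volume and day are not stated. Age and sex are not stated, and no array is tied to a mouse, so each p-value reflects variation among arrays that could be technical in part.

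Liver makes cholesterol from acetyl-CoA through mevalonate, the isoprenoid diphosphates, squalene and a long series of sterols. The genes of this route are switched on by SREBP-2, the product of Srebf2, a membrane-bound transcription factor. When sterols are plentiful, Insig proteins hold the complex of SREBP-2 and its escort protein Scap in the endoplasmic reticulum. When sterols are scarce, the complex leaves for the Golgi, where SREBP-2 is cut and released. Liver expresses both Insig genes. Insig1 is itself a target of SREBPs, whereas Insig2 has a transcript enriched in liver that insulin is known to lower in rodents.

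Between 13159 and 14431 of 45281 probes were detected per array. Hepatocyte markers were present, with 5 of the 6 that have a probe detected on all 12 arrays. Of 5 tested hepatocyte markers the Alb probe fell (-0.83, limma adjusted p = 0.0374, a call lost without any 1 of 10 arrays), and 4 did not pass. This probe was dim, with a mean of 7.10 (log2) with PBS and 6.27 with leptin, against 15.27 and 15.26 for Apoa1. No fall of albumin transcript is therefore read from it. Over all kept probes, leptin 4 had the lowest median correlation with its own group (0.955), and PBS 2 and PBS 3 shared the lowest among PBS arrays (0.965). PBS 3 and leptin 4 also stood apart in a daily-rhythm gene. Dbp, a daily-rhythm transcription factor that peaks late in the light phase, stood at 8.72 to 10.05 (log2 intensity) on the other PBS arrays and at 12.27 on PBS 3, and at 12.26 to 13.25 on the other leptin arrays and 11.01 on leptin 4. Of 10 tested daily-rhythm genes, Dbp (log2 difference 2.65 ± 0.53 SE, limma adjusted p = 0.00566), Per1 (0.79) and Nr1d2 (0.65) rose with leptin, while Arntl and Clock (-1.03) fell. The other 5 (Tef, Per3, Ciart, Nr1d1 and Per2) did not pass, and among all genes 8.31% rose and 8.4% fell. Arntl had detected signal on 5 of the PBS arrays but on none with leptin, a fall of at least 1.95-fold. The labels give no time of day of tissue collection, and the part of daily timing in the values that follow was not tested.

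Few of these genes differed between the groups by the test used. Of the 24 tested genes, Insig2, Hsd17b7 and Srebf2 fell with leptin, Lbr rose, and 20 did not pass an adjusted p of 0.05 in limma's moderated test, which compared 6 arrays with 6. The 3 falls are 12.5% of the tested genes, against 8.4% of all 8819 genes, and the 1 rise is 4.17%, against 8.31%. In both directions together 16.7% of the pathway's tested genes passed, as did 16.7% of all genes, so the share of calls was that of the background. At an unadjusted p under 0.05 the shares were 37.5% (9 genes) and 32.2%. Their median log2 difference was -0.028, against 0.0039 over all genes. The 4 calls were kept whichever 1 array was left out. The number of rises was less settled, at 4 without leptin 4, 3 without PBS 3, 2 without PBS 5 and 5 without PBS 3 and leptin 4 together.

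**Figure D1:**
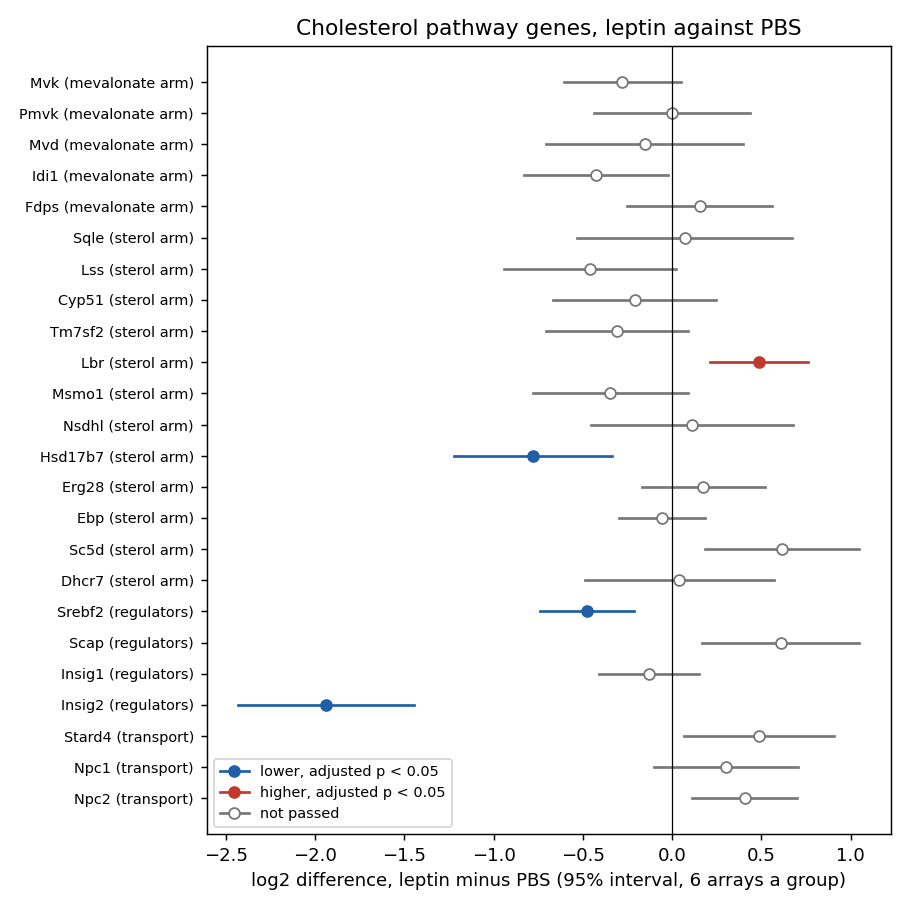
Log2 difference between leptin and PBS (x axis) for the 24 tested genes (y axis), with 95% intervals from limma, 6 arrays a group. Insig2 lies at -1.94, well to the left of all others, and most intervals include 0.

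Among the regulators, Insig2 fell the most. On the PBS arrays its normalized intensity had a lowest value of 11.14, a median of 12.41 and a highest of 12.55 (log2), and on the leptin arrays 9.94, 10.24 and 10.59. Every leptin array was below every PBS array, and the lowest PBS array, PBS 3, was nearest to the leptin group. The mean went from 12.20 ± 0.54 (SD, n = 6) with PBS to 10.26 ± 0.31 (n = 6) with leptin, a log2 difference of -1.94 ± 0.23 (SE) or 3.84-fold (limma adjusted p = 0.000334). By size it ranked 18 among the 741 genes that fell. The authors' deposited table, computed without background subtraction, gives Insig2 a log2 difference of -1.86. Without PBS 3 it was -2.15, and without PBS 3 and leptin 4 together -2.22.

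All 3 Insig2 probes fell, but not by the same amount. Probe ILMN_2690256 went from 11.74 ± 0.50 to 9.78 ± 0.39 (log2, SD, n = 6), a difference of -1.96, close to the -1.94 of the brightest probe, ILMN_1216822. Probe ILMN_1234858 read 7.80, 10.04 and 10.27 (lowest, median and highest) on the PBS arrays, all detected, and 4.34, 4.83 and 5.52 on the leptin arrays, of which 1 was detected. Its difference was -4.73 ± 0.38 (SE, limma adjusted p over all kept probes = 1.27e-05). Since 5 of the leptin readings were not detected, the size of this fall was not measured. The files do not say which part of the gene each probe reads. As the mean over its 3 probes, which includes those readings, Insig2 differed by -2.87.

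RefSeq lists 3 start sites for mouse Insig2 on chromosome 1, and the sequences around them are shown because the probes of this gene moved by unequal amounts. Each is a window of 300 bases around a start, of which the last 50 follow it, 5′ to 3′, in build GRCm38.p6. Capitals mark matches on either strand to a sterol regulatory element (TCACNCCAC), a CCAAT box (CCAAT), a GC box (GGGCGG) or an E-box (CACGTG).
Insig2, chr1:121332540-121332839, minus strand: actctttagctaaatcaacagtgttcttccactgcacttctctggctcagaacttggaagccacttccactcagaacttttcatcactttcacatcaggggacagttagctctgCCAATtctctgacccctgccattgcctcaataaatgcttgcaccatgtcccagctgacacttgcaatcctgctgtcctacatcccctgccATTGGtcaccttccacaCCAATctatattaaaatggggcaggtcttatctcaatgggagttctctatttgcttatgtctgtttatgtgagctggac
Insig2, chr1:121327975-121328274, minus strand: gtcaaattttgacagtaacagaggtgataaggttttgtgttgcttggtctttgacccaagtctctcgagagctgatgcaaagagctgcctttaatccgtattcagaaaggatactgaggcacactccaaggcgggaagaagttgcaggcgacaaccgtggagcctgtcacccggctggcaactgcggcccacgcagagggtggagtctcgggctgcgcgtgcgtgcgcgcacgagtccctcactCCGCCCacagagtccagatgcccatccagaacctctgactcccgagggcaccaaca
Insig2, chr1:121327629-121327928, minus strand: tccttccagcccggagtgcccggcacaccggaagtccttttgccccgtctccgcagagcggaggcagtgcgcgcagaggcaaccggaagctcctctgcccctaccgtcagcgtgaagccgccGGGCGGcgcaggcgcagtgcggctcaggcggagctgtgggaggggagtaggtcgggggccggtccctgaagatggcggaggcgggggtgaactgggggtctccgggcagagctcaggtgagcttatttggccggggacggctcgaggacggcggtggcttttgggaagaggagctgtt
The most upstream window, listed first, holds 3 CCAAT boxes and no GC box, and each of the other windows holds 1 GC box and no CCAAT box. Of 32851 mouse promoter windows of the same length, 37.4% hold a CCAAT box and 35.7% a GC box. A match describes these letters alone, and the array values do not tell the start sites apart.

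Srebf2, which encodes SREBP-2, fell by a smaller amount. Its lowest, median and highest values were 7.63, 7.91 and 8.25 (log2) with PBS and 7.32, 7.43 and 7.53 with leptin, and the groups did not overlap. The log2 difference was -0.48 ± 0.12 (SE, limma adjusted p = 0.0194), or 1.39-fold. Its second probe differed by -0.44 ± 0.13 (adjusted p over all kept probes = 0.0331), and there the lowest PBS array (6.44) lay below the highest leptin array (6.57). By the authors' deposited p-values, adjusted over the same genes, Srebf2 did not pass (adjusted p = 0.0648). The RefSeq window of Srebf2 is shown as that of the transcription factor of the pathway, with the same build, length and capitals as for Insig2.
Srebf2, chr15:82147019-82147318, plus strand: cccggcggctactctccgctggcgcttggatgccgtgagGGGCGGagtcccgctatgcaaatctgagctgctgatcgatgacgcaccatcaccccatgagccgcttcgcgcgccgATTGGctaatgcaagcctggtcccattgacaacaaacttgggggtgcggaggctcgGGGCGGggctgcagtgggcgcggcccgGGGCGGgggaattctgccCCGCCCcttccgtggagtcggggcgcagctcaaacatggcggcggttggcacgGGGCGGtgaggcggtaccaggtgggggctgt
This window holds 1 CCAAT box and 5 GC boxes. The table of RefSeq windows used here covers 23 of the 28 genes, with 29 windows, of which 20 hold a CCAAT box, 24 a GC box, 6 an E-box and 1, that of Hmgcs1, the sterol regulatory element as spelled here. Among all windows 7.15% hold the E-box and 1.24% the sterol regulatory element. These counts describe the letters and say nothing about binding.

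Insig1, whose transcript follows SREBP activity, did not pass. It ranged from 9.60 to 10.22 (median 9.91) with PBS and from 9.58 to 10.10 (median 9.75) with leptin, and the groups overlapped. The log2 difference was -0.13 ± 0.13 (SE), with a 95% interval from -0.41 to 0.15, and its dimmest kept probe stood at 0.18, in the other direction. The interval of Insig2, -2.43 to -1.44, lies wholly outside that of Insig1. Scap stood at 7.95, 8.17 and 8.82 with PBS (lowest, median, highest) and at 8.13, 9.02 and 9.27 with leptin. PBS 3 was the highest PBS array and leptin 4 the lowest leptin array. Its log2 difference of 0.61 ± 0.21 did not pass (adjusted p = 0.0567), but did without leptin 4 (0.75, adjusted p = 0.0153), without PBS 3 (0.73, 0.0236) and without both (0.87, 0.00358). A second, dimmer Scap probe, detected on 3 arrays of each group, stood at -0.089, and the mean over both probes differed by 0.26 (adjusted p = 0.130), so the size of the Scap difference depends on the probe.

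**Figure D2:**
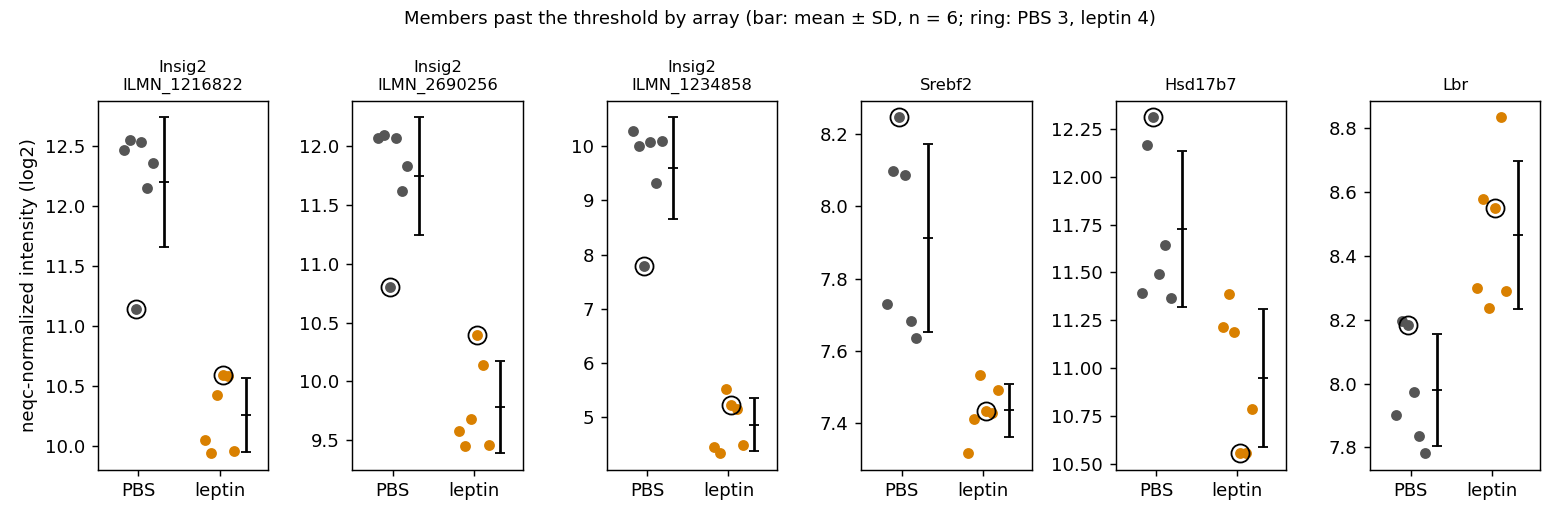
Normalized log2 intensity (y axis) on each of the 6 PBS and 6 leptin arrays for the 3 Insig2 probes, Srebf2, Hsd17b7 and Lbr, with mean ± SD beside the points and rings around PBS 3 and leptin 4. PBS 3 is the lowest PBS array for all 3 Insig2 probes, and for Hsd17b7 the lowest PBS array (11.37) lies under the highest leptin array (11.39).

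The enzymes of the mevalonate arm, which makes the isoprenoid diphosphates, gave no call in limma's test. None of the 5 tested genes passed, 1 had an unadjusted p under 0.05 (Idi1), and none passed by the authors' p-values adjusted over the same genes. The 5 log2 differences ran from -0.43 to 0.15, with a median of -0.15. Idi1, the isopentenyl diphosphate isomerase, had the greatest difference. It read 5.97, 6.59 and 6.87 (lowest, median, highest) with PBS and 5.76, 5.95 and 6.57 with leptin, and the groups overlapped (-0.43 ± 0.19 SE, adjusted p = 0.132). Mvk, the mevalonate kinase, was dim, with detection on 3 PBS arrays and 1 leptin array. Pmvk, the phosphomevalonate kinase, differed by -0.0008, with a 95% interval from -0.44 to 0.43, and Mvd, the decarboxylase that follows it, by -0.15 (-0.71 to 0.40). For Fdps, which makes farnesyl diphosphate, the brightest probe stood at 0.15 (-0.25 to 0.56) and a dimmer probe, detected on 5 PBS arrays and 2 leptin arrays, at -1.26 ± 0.46 (adjusted p over all kept probes = 0.0699), so that the direction of Fdps is uncertain.

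In the sterol arm, from squalene to cholesterol, 12 enzymes were tested. Of these 1 was lower, 1 was higher and 10 missed the threshold, and the median log2 difference was -0.0076. Hsd17b7, the keto reductase of sterol demethylation, fell. It read 11.37, 11.57 and 12.31 (lowest, median, highest) with PBS and 10.56, 10.99 and 11.39 with leptin. The lowest PBS array, PBS 6, lay just under the highest leptin array, leptin 2. The log2 difference was -0.78 ± 0.21 (SE, limma adjusted p = 0.0213), or 1.72-fold, and the call was lost without PBS 3 and leptin 4 together (-0.58, adjusted p = 0.0565). Its RefSeq window, shown as that of the enzyme that fell, holds 3 CCAAT boxes, 3 GC boxes and 1 E-box.
Hsd17b7, chr1:169969156-169969455, minus strand: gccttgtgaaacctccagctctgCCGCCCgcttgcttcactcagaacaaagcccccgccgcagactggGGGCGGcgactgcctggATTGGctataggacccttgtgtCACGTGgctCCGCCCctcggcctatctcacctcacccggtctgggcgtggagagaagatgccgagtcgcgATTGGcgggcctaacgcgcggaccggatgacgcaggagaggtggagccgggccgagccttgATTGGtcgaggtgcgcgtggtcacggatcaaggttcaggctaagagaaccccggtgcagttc

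Lbr, the lamin B receptor of the inner nuclear membrane, which is also a sterol reductase, rose. Its values were 7.78, 7.94 and 8.20 with PBS and 8.24, 8.42 and 8.83 with leptin, without overlap, for a log2 difference of 0.49 ± 0.13 (SE, limma adjusted p = 0.0213). Tm7sf2, which carries out the same reduction, stood at -0.31 ± 0.19 (adjusted p = 0.274). Lbr did not pass by the authors' deposited p-values (adjusted p = 0.0626). Because whole liver was measured, a change in the number of cells of a type and a change in RNA per cell cannot be told apart. Some markers of other liver cells were higher with leptin, as Lbr was. Of 5 tested Kupffer cell and macrophage markers 1 rose, Clec4f (0.97), and 4 did not pass, where 8.31% of all genes rose. The summed signal of the list ran from 4234 to 8070 with PBS and from 5872 to 13332 with leptin, with Cd5l not detected. Of 5 endothelial markers Cdh5 (1.03) and Stab2 (0.58) rose, while Pecam1 (0.33), Clec4g (0.23) and Lyve1 (0.0091) did not pass. Summed endothelial signals were 5151 to 10038 with PBS and 6968 to 10176 with leptin, and Kdr was not detected. With so few markers in each list, no change of a cell type is read from these counts. The T cell markers Cd3e and Cd3g were detected on no PBS array and on 5 and 4 leptin arrays. They entered the test through the leptin arrays alone, and their rises were at least 1.04-fold (Cd3e) and 1.12-fold (Cd3g). The summed lymphocyte signal, with no background subtracted, was 579.3 to 609.2 with PBS and 641.4 to 847.1 with leptin. The B cell marker Ms4a1 was not detected. None of 4 tested stellate cell markers passed in limma's test, with 1 at an unadjusted p under 0.05. Neither of the tested bile duct markers passed, Sox9 (-0.82) and Krt7 (-0.082), both lower in mean, and Pdgfrb, Krt19 and Epcam were not detected. The part of these cells in the values of Lbr and Npc2 was not tested.

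The other enzymes of this arm did not pass. Sqle, the squalene epoxidase, read 9.50, 10.68 and 11.30 (lowest, median, highest) with PBS and 10.40, 10.65 and 10.74 with leptin. The leptin values lay inside the PBS range, and the log2 difference was 0.07 (95% interval -0.53 to 0.67). A second Sqle probe stood at -0.59 ± 0.25 (adjusted p over all kept probes = 0.117), in the other direction. Cyp51, the lanosterol demethylase, read 10.25, 11.16 and 11.53 with PBS and 10.36, 10.88 and 11.11 with leptin (-0.21, interval -0.67 to 0.25). Lss, the lanosterol synthase, read 8.85, 9.77 and 10.20 with PBS and 8.84, 9.18 and 9.38 with leptin (-0.46 ± 0.22 SE, adjusted p = 0.174). A dimmer Lss probe, detected on 2 PBS and 4 leptin arrays, stood at 0.069, and the mean over both probes differed by -0.20. Sc5d, the sterol desaturase near the end of the route, went the other way. It read 5.66, 6.57 and 6.86 with PBS and 6.68, 7.13 and 7.35 with leptin, with overlap, and its difference of 0.62 ± 0.20 lay just outside the threshold (adjusted p = 0.0519). It passed without leptin 4 (adjusted p = 0.0376), PBS 3 (0.0473) or PBS 5 (0.0437) and without PBS 3 and leptin 4 together (0.0333). It also passed with array weights (0.0165), at an offset of 50 (0.0498) and with every kept probe tested (0.0485). The remaining enzymes, Msmo1, Nsdhl, Erg28, Ebp and Dhcr7, had log2 differences from -0.35 to 0.17. For Erg28 (0.17) the dimmest kept probe stood at -0.19, in the other direction.

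Transcripts of the 3 proteins in the list that move cholesterol inside the cell were higher in mean with leptin. None of the 3 passed in limma's test. In that test 2 had an unadjusted p under 0.05. None passed by the authors' p-values adjusted over the same genes, and before adjustment their Cyber-T p was 0.0249 for Stard4 and 0.0302 for Npc2. Stard4, a carrier of cholesterol between membranes, read 9.17, 9.68 and 10.13 with PBS and 9.51, 10.28 and 10.58 with leptin (0.49 ± 0.20 SE, adjusted p = 0.102). It passed without leptin 4 (0.61, adjusted p = 0.0324), with array weights (0.64, 0.0265) and without PBS 3 and leptin 4 together (0.71, 0.0136). Npc1 and Npc2 together release cholesterol from lysosomes. Npc1 stood at 0.30 ± 0.19 (adjusted p = 0.288), and passed without PBS 3 and leptin 4 together (0.55, 0.0156). Npc2 stood at 0.41 ± 0.14 (adjusted p = 0.0565), and all its leptin values lay above all its PBS values, although leptin 4 (8.85) was far above the next leptin array (8.26). Groups without overlap were found for 4 of the 24 genes, Insig2, Srebf2, Lbr and Npc2, which is 16.7% against 7.28% of all genes.

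**Figure D3:**
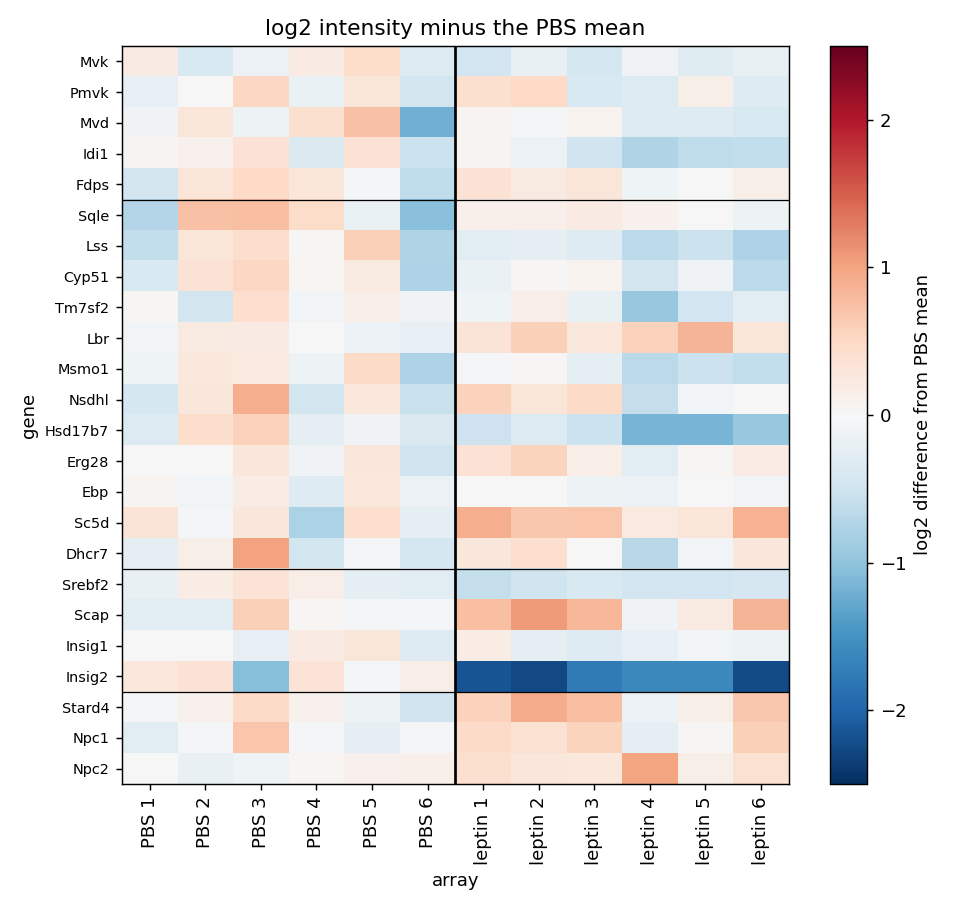
Log2 intensity of the 24 tested genes (rows) on the 12 arrays (columns) minus the mean of the PBS arrays, with lines between the mevalonate arm, the sterol arm, the regulators and the transport genes. The row of Insig2 is dark blue on all leptin arrays and paler blue on PBS 3, and the column of PBS 6 is blue for most enzymes.

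Although the groups differed little, the enzymes varied together from array to array. The mean of the 17 tested enzymes was 9.44 ± 0.34 (log2, SD, n = 6) with PBS, between 8.92 and 9.85, and 9.36 ± 0.20 (n = 6) with leptin, between 9.07 and 9.60. PBS 6 held the lowest PBS value for 12 of the 17 enzymes and PBS 3 the highest for 9, while leptin 4 held the lowest leptin value for 10. These counts have no share over all genes beside them, so they are not read as particular to the pathway. Deviations from the group means, over 12 arrays, had a median Pearson r of 0.58 over the 136 pairs of enzymes and 0.38 over the 276 pairs of all 24 genes, against 0.00080 over all pairs of the 8819 genes. Without PBS 3 and PBS 6 these medians were 0.43, 0.25 and 0.0024. Over 12 arrays, 39.9% of the 276 pairs had r above 0.5, against 11.9% of all pairs of the 8819 genes. Correlations are given as descriptions, with no p, and the points share arrays and their normalization.

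The strongest pairs were Fdps with Sqle (r = 0.93), Lss with Cyp51 (0.91), and Idi1 with Msmo1 (0.90). Of the 17 enzymes, 12 had r above 0.5 with the mean of the other enzymes in each group separately. No share over all genes stands beside this count. Msmo1, a methyl sterol oxidase, had r = 0.92 within PBS and 0.96 within leptin (Spearman rho 0.77 and 1, n = 6 each). Erg28, known from yeast as a scaffold of the sterol demethylation enzymes, had r = 0.93 within each group (rho 0.89 and 0.83). Without the 2 arrays farthest from the median enzyme level in each group, r was 0.97 and 0.99 for Msmo1 and 0.74 and 0.79 for Erg28. Other enzymes were less steady. Sqle had r = 0.72 within PBS and 0.40 within leptin, and 0.19 and 0.73 without those arrays. For Hsd17b7 r went from 0.78 and 0.91 to 0.59 and 0.83. The lowest values over both groups were those of Mvk (r = -0.0083) and Lbr (0.21).

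**Figure D4:**
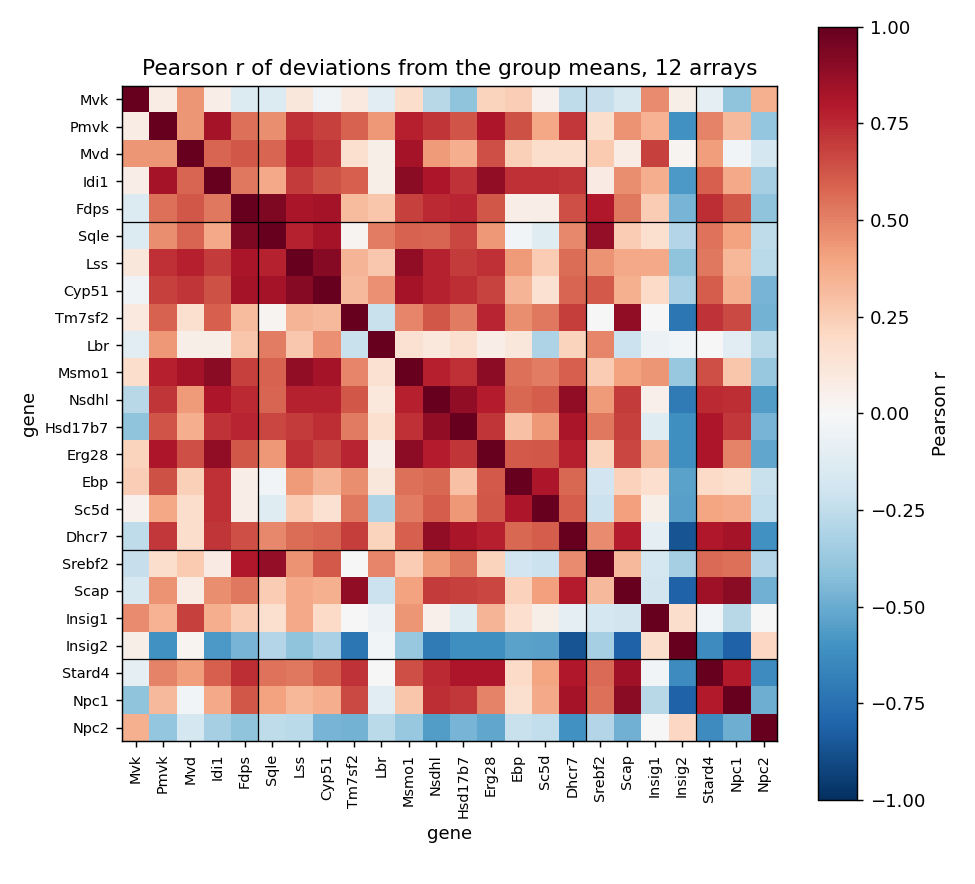
Pearson r between the deviations of each pair of the 24 tested genes from their group means, over 12 arrays, with genes on both axes and lines between the roles. Most enzymes are red with one another, and Insig2 is blue against most of them.

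The regulators took different places in this pattern. With the enzyme mean, Insig2 had r = -0.61 within PBS and -0.64 within leptin (rho -0.43 and -0.66, n = 6 each), and -0.52 over both groups once PBS 3 and PBS 6, the arrays farthest from the median enzyme level, were left out. Within leptin the relation rested on leptin 2 and leptin 4, since r was -0.21 without them. The lowest r of the 276 pairs was that of Insig2 with Dhcr7, the reductase of the last step (-0.86). Among PBS arrays, PBS 3 held both the lowest Insig2 (11.14) and the highest Dhcr7 (9.55). Among leptin arrays, leptin 4 held the highest Insig2 (10.59) and the lowest Dhcr7 (7.86). The r of this pair without those arrays was not computed, so it may rest on them. Srebf2 had r = 0.62 with the enzyme mean within PBS and -0.38 within leptin (rho 0.66 and -0.54). Within PBS it was -0.079 without PBS 3 and PBS 6, so it rested on those arrays. With Sqle alone, Srebf2 had r = 0.93 within PBS (rho 0.94) and -0.12 within leptin (rho -0.029), where the SD of these genes was 0.074 and 0.12. The latter was 0.73 without leptin 5 and leptin 6, so no order is read from it. Over both groups r with the enzyme mean was 0.58 for Scap, 0.54 for Npc1, 0.76 for Stard4 and -0.47 for Npc2. Without PBS 3 and PBS 6 it was 0.61 for Scap, 0.60 for Stard4 and -0.47 for Npc2. Within PBS alone, without those arrays, r was 0.10 for Scap, -0.23 for Stard4 and -0.063 for Npc2, so there it rested on them.

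Insig2 ran opposite to Dbp from array to array. Over deviations from the group means the r was -0.89 (rho -0.82, n = 12), and -0.74 without PBS 3 and leptin 4. Within groups it was -0.95 for PBS and -0.72 for leptin, and without the 2 arrays farthest from the median Dbp level -0.60 and 0.031, so the relation within leptin rested on leptin 4 and leptin 5. The enzyme mean was less closely tied to Dbp (r = 0.60, rho 0.48, n = 12). Dbp read 12.27 on PBS 3 and 12.26 on leptin 5, while Insig2 read 11.14 on PBS 3 and 10.58 on leptin 5. These are single arrays, and PBS 3 stood apart from its group in both genes, so nothing is read from this pair. The part of Dbp or of daily timing in the fall of Insig2 was not tested.

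**Figure D5:**
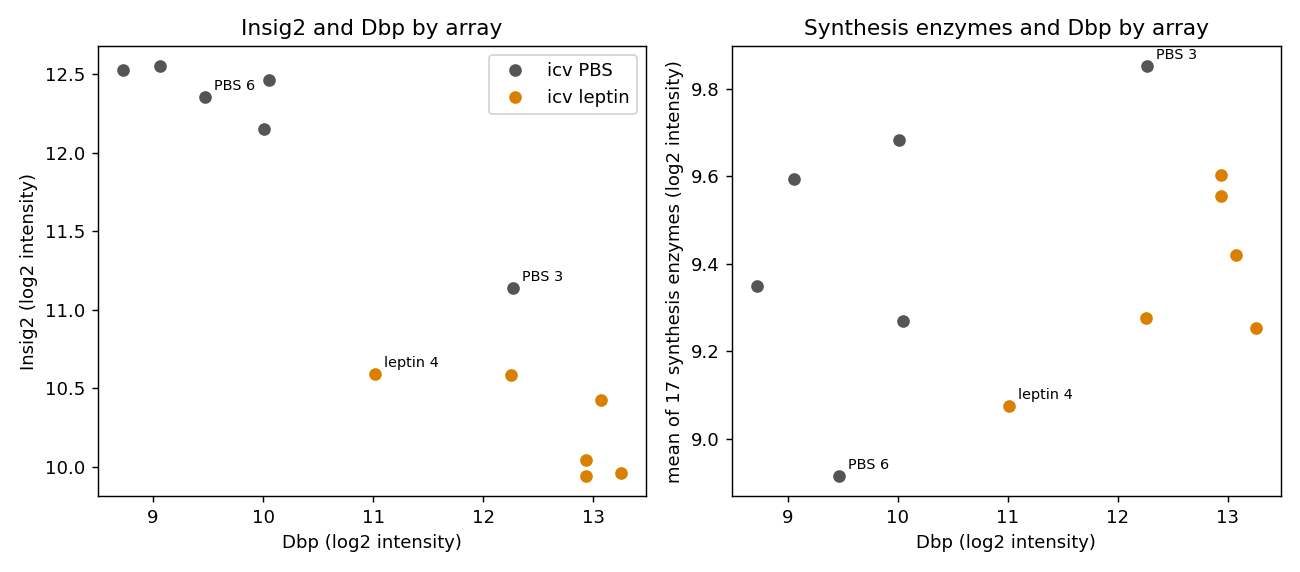
Insig2 (left) and the mean of the 17 tested synthesis enzymes (right) against Dbp, all as log2 intensity, with 1 point per array and PBS 3, PBS 6 and leptin 4 named. Insig2 is lower where Dbp is higher, and PBS 3 lies between its group and the leptin arrays.

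The spread between arrays was wider with PBS for 18 of the 24 genes (75%), against 56.3% of all genes. The SD of Sqle was 0.77 with PBS and 0.12 with leptin, that of Mvd 0.67 and 0.22, and that of Fdps 0.46 and 0.18. Leaving out PBS 3 brought the count to 13 of 24, against 52.5% of all genes, and leaving out leptin 4 to 22 of 24, against 65.6%. No test was made of this difference in spread.

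Other genes around the pathway, from lists chosen by name, moved in both directions. Of 14 tested genes of SREBP processing and sterol-regulated protein turnover, 3 were higher, 4 were lower and 7 missed the threshold, against 8.31% higher and 8.4% lower among all genes. Their median log2 difference was -0.0013. Erlin1, an endoplasmic reticulum protein that binds cholesterol, rose from 7.94 ± 0.24 to 9.03 ± 0.23 (SD, n = 6), a difference of 1.08 ± 0.14 (SE, limma adjusted p = 0.000496). Rnf145, a ubiquitin ligase of the endoplasmic reticulum that acts on Scap, rose by 1.10 ± 0.17 (adjusted p = 0.00141), and Ufd1, which helps to pull ubiquitinated proteins out of the membrane, fell by 0.81 on the log2 scale (adjusted p = 0.00196). Srebf1, the lipogenic relative of Srebf2, rose by 1.08 ± 0.32 (adjusted p = 0.0341), a call lost when 1 of 8 single arrays was omitted. These were leptin 1, 2, 3 and 6 and PBS 1, 2, 4 and 5, with an adjusted p of at most 0.0727. The call of Srebf1 was also lost with no background correction, with the deposited log2 values and with no filter on dim probes.

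Of 14 genes of cholesterol efflux, esterification and the oxysterol response, Stard5, a sterol carrier, fell (-0.49 ± 0.12, adjusted p = 0.0131), and 13 did not pass (median 0.067). The call of Stard5 was lost without leptin 4, leptin 5 or PBS 4 (adjusted p up to 0.160). None of 7 genes that turn cholesterol into bile acids and none of 6 that supply acetyl-CoA and NADPH passed at an adjusted p of 0.05 in limma, with 1 and 2 at an unadjusted p under 0.05 and medians of 0.063 and 0.41. Of 8 genes that use isoprenoid diphosphates for other products, Nus1, a subunit of the dolichol-making enzyme, fell (-0.51 ± 0.16, adjusted p = 0.0388). Omitting 1 of 9 single arrays ended this call, namely leptin 1, 2, 3, 5 and 6 and PBS 1, 2, 4 and 5, with an adjusted p of at most 0.0799. It was also lost by the authors' p-values (0.0681) and with no filter on dim probes (0.0654).

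Outside the list, the 6 genes whose deviations followed the enzyme mean most closely over 12 arrays were Rdh11 (r = 0.91), 4930581F22Rik (0.90), Car2 (0.81), Mmab (0.77), Ebpl (0.77) and Cald1 (0.76). The 6 that ran most opposite were Snx1 (-0.91), Slk (-0.86), Fam171a2 (-0.83), Mtmr12 (-0.82), U2surp (-0.81) and E2f3 (-0.80). These were picked as the extremes of 8819 genes, so the values are a description.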

How the data were processed

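Mouse liver RNA was measured on Illumina Mouse-6 V2 arrays, per the labels. The deposited table holds an intensity per probe and array with a detection p-value, per the file headers. Ranked from low to high, the signals of the 12 arrays had the same distribution (median spread 0 percent), so the deposited intensity values had been equalized between arrays, by software not given in the sources used here, with no background subtracted (lowest signal 95.9). The authors' deposited log2 values equal log2 of these signals. The authors' deposited Cyber-T table gives an unadjusted p-value and a log2 difference per probe, per the file headers.

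Signals were processed with limma 3.58.1 in R 4.3.3 by neqc, with the background taken from the detection p-values, an offset of 16, quantile normalization and log2, so that differences of dim genes are understated. Probes with a detection p under 0.01 on at least 3 of 12 arrays were kept, 15062 in all, of which 13068 had 1 gene symbol in GEO's platform annotation. Of all 45281 probes, 34885 had 1 symbol, 18 several and 10378 none. The brightest kept probe stood for each of 8819 genes. Groups were compared with lmFit and eBayes, in a two-sided test, with Benjamini-Hochberg adjustment over all genes, and checked on simulated data. The number of arrays limits the precision. Enzyme means are means of log2 values.

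The genes and lists were chosen with earlier results of these data known. Values by array are given for genes past the threshold, the 8 of greatest absolute difference and 9 named regulators and enzymes. Up to 4 called genes of each other list and the 6 genes most like and unlike the enzyme mean are named. Nr1d2 was named after its value was seen. Alternatives changed the background, offset, filter, probe rule, variance model and array weights, added a replicate block, used the authors' p-values or left out arrays. Same-numbered arrays of the groups deviated together with correlations from -0.32 to 0.46, so the numbers were not taken as pairs. No slide is named, so no batch was tested. Sequences are from RefSeq, build GRCm38.p6.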

Additional observations from a re-analysis of the deposited data

Results flagged for a closer look

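Of 80 sets of 6 arrays, from 40 genes in each group, 8 held an array far from its nearest neighbour by Dixon's criterion, the gap divided by the whole range of the 6. In independent sets of normal values, chance alone gives about 1 in 20. The 80 sets share 12 arrays and come from picked genes, so no excess is read from this count. PBS 3 was that array for Insig2 (ratio 0.716, at 11.14 against 12.15 on the next PBS array), Scap (0.668, at 8.82 against 8.24), Npc1 (0.764, at 12.77 against 12.02), Dbp (0.626, at 12.27 against 10.05) and Arntl (0.805, at 4.84 against 6.33). For each of these genes PBS 3 lay on the side of the PBS values on which the leptin mean lies. Leptin 4 stood apart for Npc2 (0.699, at 8.85 against 8.26) and Arntl (0.758, at 5.11 against 4.54), although Arntl was not detected on any leptin array, so those readings are background. The Arntl reading of PBS 3 (4.84) lay below that of leptin 4 (5.11), so it is at background level too. PBS 2 had the lowest value of Alb among the PBS arrays (0.809, at 5.77 against 7.15).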

How the results depend on the processing

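The falls of Insig2, Hsd17b7 and Srebf2 and the rise of Lbr kept their direction and their call without each of the 12 arrays, with 3 genes of the pathway lower in each of those fits. Insig2 ran from -2.15 to -1.87 on the log2 scale in those fits and was called in the other 12 settings too. The exceptions among the others were Srebf2 and Lbr by the authors' p-values and Hsd17b7 without PBS 3 and leptin 4 together. The number of genes higher with leptin, 1, moved most. It was 2 at an offset of 50, 2 with every kept probe tested, 4 with array weights, 2 with the replicate block, 5 without PBS 3 and leptin 4 together, and between 1 and 4 without 1 array. It was 0 by the authors' Cyber-T p-values, of which 5 were under 0.05 before adjustment. The genes that entered under one or more of these settings were Sc5d, Scap, Stard4 and Npc1, and the cause was not tested. Over all genes, 1474 were called, 2722 with every kept probe tested, where 15062 probes rather than 8819 genes were counted, 1384 with the replicate block, and 1054 to 1546 without 1 array. Some genes that were not called changed sign. Pmvk, at -0.00084, stood at 0.00082 with no background correction, with the deposited log2 values and by the authors' table, at 0.091 with array weights and at 0.17 without PBS 3 and leptin 4 together. As the mean over kept probes, Fdps stood at -0.55 and Sqle at -0.26. Without 1 array, Pmvk ran from -0.099 to 0.10, Sqle from -0.14 to 0.22, Nsdhl from -0.00037 to 0.29 and Dhcr7 from -0.050 to 0.24. The median log2 difference of the tested genes stayed near 0, between -0.12 and 0.042 without 1 array. The same-numbered arrays share only a number, and 2 of the 6 leptin arrays correlated best with their own number. With the block Sc5d was called, and no call of the pathway was lost. Dim probes such as those of Mvk, detected on 4 arrays in all, lie near background, which limits what their values can show.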
